A study of Mus musculus with 30 samples.

Results

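Carcinoma in situ, the stage at which the whole thickness of a squamous epithelium is dysplastic but its basement membrane is not breached, was compared with dysplasia, the milder lesion before it, by RNA sequencing of mouse oral tissue. The comparison took the 6 samples staged as carcinoma in situ (C01, C02, C04, C07, C10 and C11) and the 7 staged as dysplasia (B01 to B07), which are 13 of the 30 samples in the series, and covered every gene with enough counts to test. The other samples were 3 normal, 8 hyperplasia and 6 invasive carcinoma, and they entered the statistical model to estimate the spread and set the filter on low counts. Both groups were male C57BL/6J mice given 4NQO (4-nitroquinoline 1-oxide, a mutagen used to induce oral tumours) in their drinking water at 100 ug/mL for 10 weeks from 6 weeks of age. The labels put that treatment on every sample of the series, carry no other agent or allele, and name the tissue oral squamous cell carcinoma at all 5 stages, so the stage label alone separated the groups. They do not say when tissue was taken, from which site in the mouth, or that the samples came from separate mice, so the p-values reflect spread among libraries that may be partly technical. All dysplasia codes begin with B and all carcinoma in situ codes with C, so any difference in handling that followed the letter cannot be told apart from stage.

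In oral epithelium, basal keratinocytes hold to the basement membrane through laminins and integrins and divide, and their daughters move up, switch to suprabasal keratins and assemble the cornified envelope. Injured or inflamed epithelium makes chemokines that draw neutrophils, under the control of interleukin 1 and the interleukin 17 pathway, and tissue remodelling uses matrix metalloproteinases, which cut extracellular matrix, and the plasminogen activators. The Cdkn2a locus encodes cell cycle inhibitors that many cancers lose and that stressed cells switch on.

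Total counts per sample were 19753677 to 24684124 in dysplasia and 22489231 to 27931067 in carcinoma in situ, and 17638 of 55487 listed genes were tested. All 13 samples held epithelium: Krt5 was at 1900 or more and Krt13 at 16200 or more in each, in CPM (counts scaled to the library total by edgeR). They also held muscle (summed level of 31 muscle genes 37400 to 67900 CPM in dysplasia and 38200 to 66200 in carcinoma in situ). Salivary gland genes varied widely, with the sum of 25 such genes at 119 to 45500 CPM in dysplasia (highest in B01) and 122 to 16700 in carcinoma in situ (highest in C07). On the first principal component of these 13 samples, which held 40.7% of the variance and was led by Muc5b and Bpifb2, both made by salivary glands, B01 stood apart at -54.1 while the other samples lay between -26.6 and 33.7. The second component held 24.6% and was led by Saa3, Mmp13 and Mmp10, with C02, C07, C10 and C11 at 12 to 35.9 and every dysplasia sample, C01 and C04 below 0. In bulk tissue, fewer cells of a type and less RNA per cell cannot be told apart, which holds for every level below.

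With edgeR's quasi-likelihood test and Benjamini-Hochberg adjustment over all tested genes, 964 genes had an adjusted p under 0.05 and are called below. These 964 genes (5.47% of those tested) differed between carcinoma in situ and dysplasia. Of these, 528 (2.99%) were higher in carcinoma in situ and 436 (2.47%) lower. The increases were the larger changes: 146 of the higher genes and 24 of the lower ones differed at least 2-fold, and the median log2 fold change was 0.54 among the higher genes and -0.37 among the lower ones, against -0.002 over all tested genes. With upper-quartile scaling, which moved the median of all genes to 0.021, 67.8% of the calls were increases, against 54.8% as reported. All 6 carcinoma in situ samples lay above all 7 dysplasia samples for 100 genes (0.567% of those tested) and below all of them for 96 (0.544%). Calls were many but close to the threshold: 62 genes passed at an adjusted p under 0.01, and a test for changes larger than 1.5-fold called 0 genes (389 at an unadjusted p under 0.05). Without adjustment, 4112 genes (23.3% of those tested) had a p under 0.05, the share against which such counts for gene lists are to be read.

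**Figure D1:**
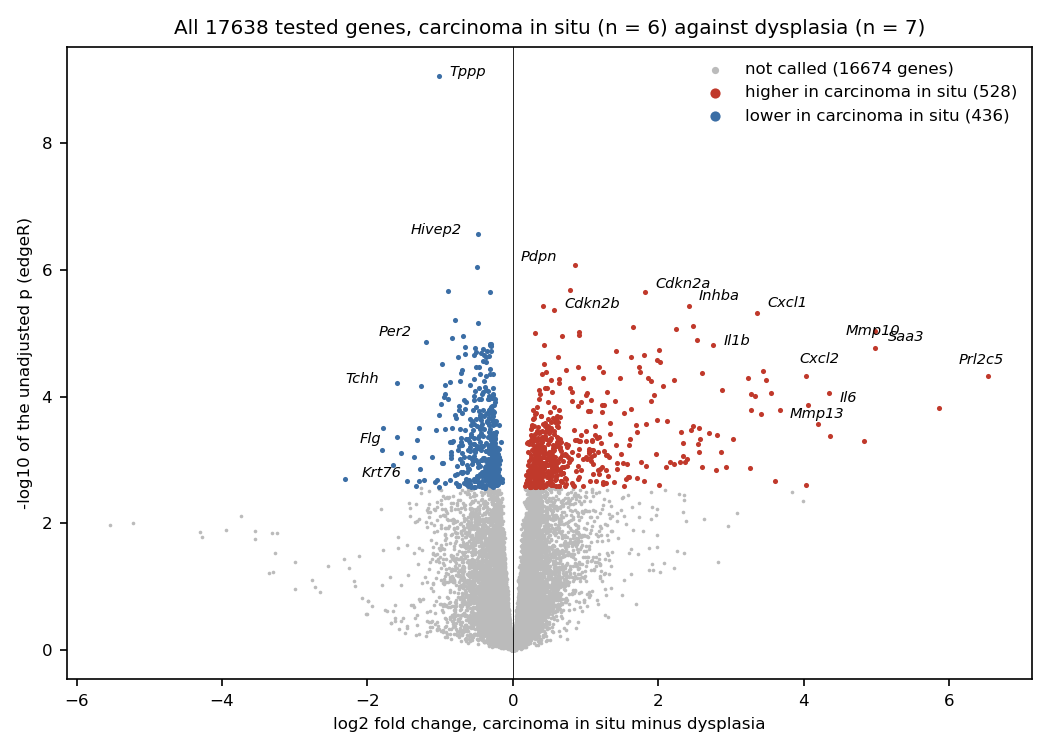
Each point is 1 of the 17638 tested genes, with its log2 fold change (carcinoma in situ minus dysplasia) on the x axis and the negative log10 of its unadjusted edgeR p on the y axis. The 528 genes called higher reach log2 fold changes above 4, while 24 of the 436 called lower pass -1 and the lower side holds the smallest p, that of Tppp.

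The number of calls also rested on single libraries. It was 164 without C07, 222 without C10, 272 without C02, 345 without B03, 459 without B02, 474 without B06, 522 without B05, 545 without B04, 640 without B07 and 2201 without C04. None of the calls shared with the reported ones changed direction in any of these fits. Of 112 called genes recomputed with each library left out in turn, 36 were tested and called in every such fit. Those fits kept the samples of the other stages. A fit to the 13 samples alone used the same genes, and 74 of the 112 lost their call in it. Selp, Il6 and Mmp3, described below, were among these 74. With the replicate number as a block, 64 of the 112 lost their call.

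Neutrophil-attracting chemokines had the highest median change of the lists examined. Of 9 tested members of the list of neutrophil chemokines and growth factors, 6 were higher in carcinoma in situ, none was lower and the list's median log2 fold change was 2.87. The 6 were Cxcl1, Cxcl2, Ccl3 and Ccl4 and, named after their values were seen, Cxcl3 (log2 fold change 2.87) and Csf3 (2.93), which encodes the growth factor for neutrophils. The summed level of the list was 1.92 to 20.0 CPM in dysplasia (median 7.30) and 7.76 to 71.6 in carcinoma in situ (median 41.3).

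Cxcl1, a ligand of the neutrophil receptor Cxcr2, lay between 0.4 and 1.27 CPM in dysplasia (median 0.491) and between 1.09 and 19.6 in carcinoma in situ (median 5.37). C10, C02, C07 and C01 were the high samples and C11 stood a little above the dysplasia range, while C04 fell inside it. The log2 fold change was 3.35 (SE 0.59, adjusted p = 0.00709). Cxcl2, its neighbour with the same receptor, lay between 0 and 1 CPM in dysplasia (median 0.197) and between 0.612 and 11.6 in carcinoma in situ (median 5.08). Here C07, C10, C02 and C01 were high and C04 and C11 did not exceed the highest dysplasia sample, B01. This gave a log2 fold change of 4.03 (SE 0.82, adjusted p = 0.0109), and 4.68 without B01. Ccl3 and Ccl4, ligands for myeloid and T cell receptors, had log2 fold changes of 2.87 and 2.57. Cxcl5, another Cxcr2 ligand, did not pass the test (log2 fold change 1.63, adjusted p = 0.242), with B01, B02 and B07 at 7.43 to 11.3 CPM.

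Cxcl1 and Cxcl2 kept their calls with each library left out. Without C07, Ccl3 was no longer called (adjusted p = 0.053) and 2 members of the list remained called. Ccl4 was not called without C02, C07 or C10 (adjusted p 0.0553 to 0.0733), Cxcl3 without B02, B03, B04, B05, C02, C07 or C10 (0.0538 to 0.0802), and Csf3 without any of B02, B03, B05, B06, B07, C01, C02, C07 and C10 (0.0514 to 0.108).

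Cxcl1 and Cxcl2 lie close together on the plus strand of chromosome 5 (GRCm38 chr5:90891241-90893115 and chr5:90903871-90905938). Their upstream sequences are shown because both rose in the same 4 samples and both hold the letters of an NF-kB type motif. Each line gives the 250 bases before the RefSeq start (GRCm38.p6), read 5′ to 3′ on the gene's strand, with every match to GGNNTTTCC on either strand in capitals.
Cxcl1, chr5:90890995-90891244, plus strand: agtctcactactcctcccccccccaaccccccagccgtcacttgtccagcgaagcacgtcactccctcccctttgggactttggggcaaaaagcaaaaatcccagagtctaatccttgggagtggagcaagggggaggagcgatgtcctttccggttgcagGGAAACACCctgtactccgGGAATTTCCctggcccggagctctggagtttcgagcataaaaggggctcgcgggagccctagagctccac
Cxcl2, chr5:90903649-90903898, plus strand: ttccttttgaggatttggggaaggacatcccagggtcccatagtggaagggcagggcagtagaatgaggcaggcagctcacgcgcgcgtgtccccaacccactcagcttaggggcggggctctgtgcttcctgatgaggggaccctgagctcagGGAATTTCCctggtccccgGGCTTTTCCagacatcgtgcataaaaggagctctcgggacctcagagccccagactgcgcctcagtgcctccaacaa
Each window holds 2 matches, at positions -89 and -70 before the start in Cxcl1 and at -96 and -77 in Cxcl2. Of 12450 tested genes with a promoter in the table, 643 (5.16%) held the motif in the same window. Among the genes called higher it was in 33 of 389 (8.48%), among those at least 2-fold higher in 14 of 94 (14.9%), and among the genes called lower in 14 of 332 (4.22%). These are counts of letters, with no test.

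Il1b was the single interleukin 1 family cytokine called, and 7 genes of the interleukin 17 axis rose. Of 15 tested interleukin 1 and interleukin 36 family genes, 2 were higher and none was lower (list median 0.22), namely Il1b and the receptor gene Il1rl1. Of 21 tested genes of the interleukin 17 axis, 7 were higher and none was lower (median 0.65): Il6, Il24, Il23a, Osm and Il17a and, named after their values were seen, Il17c (log2 fold change 2.17) and Tnf (1.25).

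Il1b, the secreted inflammatory cytokine, lay between 1.6 and 4.89 CPM in dysplasia (median 2.53) and between 4.2 and 41.0 in carcinoma in situ (median 16.5). C07, C10, C02 and C01 were highest, C11 at 6.05 was above every dysplasia sample and C04 was below B01. Il1b had a log2 fold change of 2.75 (SE 0.52, adjusted p = 0.00832). Il6 was at 0 to 0.0874 CPM in dysplasia and at 0.0367 to 1.91 in carcinoma in situ, where C10, C02 and C07 stood above 1. Il23a, which sustains interleukin 17 producing T cells, went from a median of 0.232 CPM (0.0999 to 0.474) to a median of 1.07 (0.35 to 2.6; log2 fold change 2.06, adjusted p = 0.0124). Il24 had a log2 fold change of 4.37 (5.30 without B01) and Osm, a cytokine of myeloid cells, 2.55. Il17a was highest in C02 at 4.99 CPM, and its log2 fold change fell from 2.11 to 1.28 without that sample.

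Il1b, Il6 and Il23a kept their calls with each library left out, while without B03, C07 or C10 only 2 genes of the interleukin 17 axis were called. Il24 was not called without B03, C07 or C10 (adjusted p 0.0522 to 0.0686), Osm without B03 to B06, C02, C07 or C10 (0.0502 to 0.0967), and Il17a without B02, B03, B04, B06, B07, C02, C07 or C10 (0.0502 to 0.169). Il17c was not called without B02 to B06, C02, C07 or C10 (0.0559 to 0.149) and was 1.41 without C02, and Tnf without B02 to B07, C02, C07 or C10 (0.0738 to 0.142). Il1rl1 rested on C07, at 34.6 CPM against 2.59 to 5.56 in the other 5 samples, and its log2 fold change of 2.01 was 0.75 without C07 (adjusted p = 0.429). Leaving out any of B02 to B07, C02 or C10 also ended its call (0.0598 to 0.0867).

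Saa3, an acute-phase serum amyloid protein made locally by epithelium and macrophages, had the highest log2 fold change of the 15 tested alarmin and antimicrobial peptide genes and was the single one called. It lay between 0.578 and 5.65 CPM in dysplasia (median 1.47) and between 3.28 and 190 in carcinoma in situ (median 41.3). C07 and C10 were at 190 and 112 CPM, C01 and C02 at 38.6 and 44.1, and C04 and C11 within the range of dysplasia. The log2 fold change was 4.99 (SE 0.90, adjusted p = 0.00832), and 4.29 without C07. The neutrophil and keratinocyte alarmins S100a8 and S100a9 did not pass the test (log2 fold changes 1.35 and 1.29, adjusted p = 0.315 and 0.366). Ptgs2, the inducible cyclooxygenase, was higher (log2 fold change 2.32, adjusted p = 0.0226) and its value was set in part by C02 at 112 CPM; without C02 it was 1.46 (adjusted p = 0.104), and without B03 or C07 its call was also lost (0.0509 and 0.0589).

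**Figure D2:**
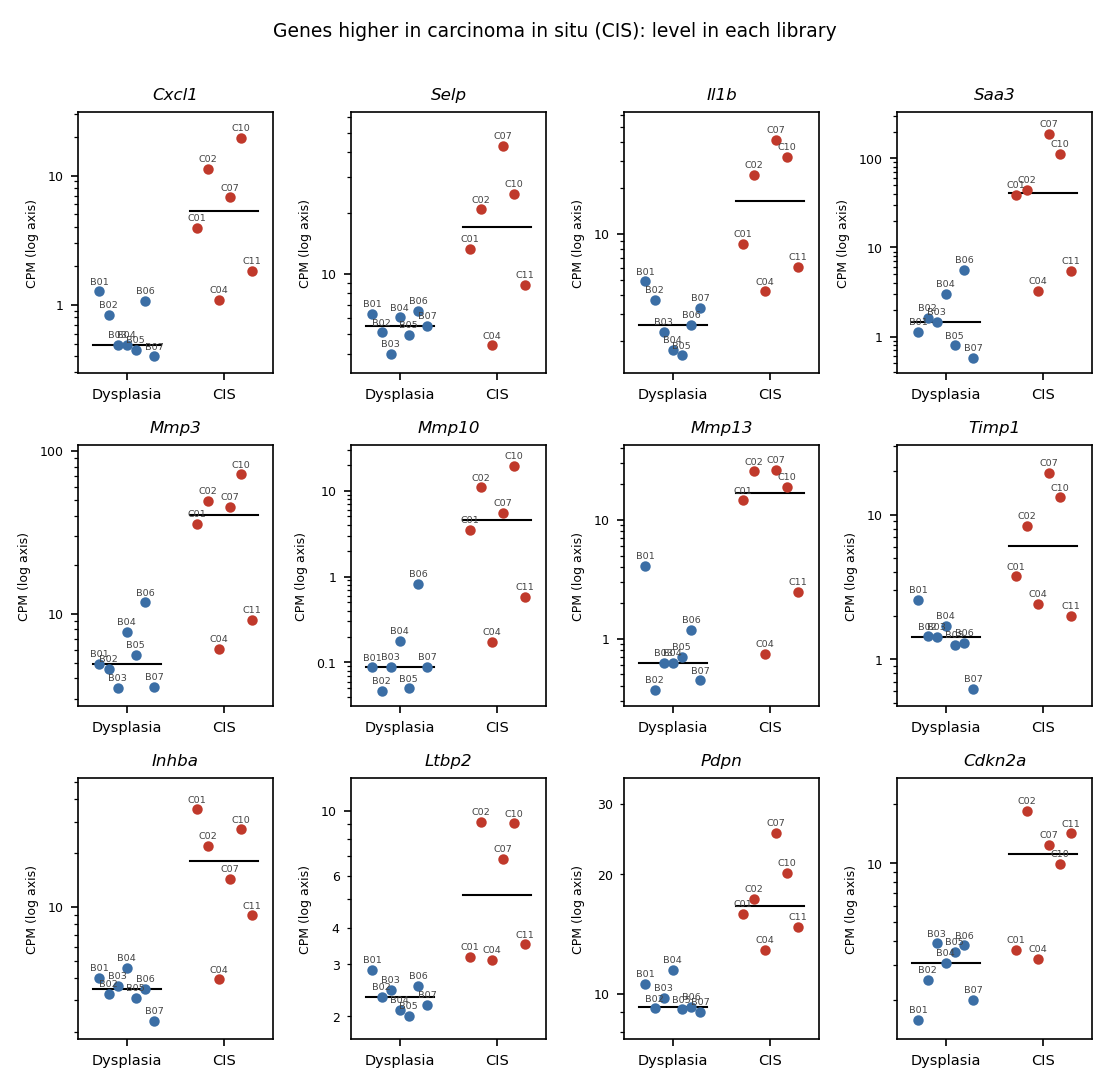
Each point is 1 library, with dysplasia in blue and carcinoma in situ (CIS) in red, on a log axis in CPM, and the black line is the group median. C01, C02, C07 and C10 stand above dysplasia for the chemokine, protease and matrix genes, C04 and C11 lie in or near the dysplasia range for most of them, and C11 is among the high samples for Cdkn2a.

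Some markers of neutrophils, macrophages and cytotoxic lymphocytes rose, and most markers of these cells did not pass the test. Of 18 tested neutrophil markers, 5 were higher and none lower (median 1.32): Csf3r, the receptor for the product of Csf3, Acod1, the itaconate enzyme, Clec4d and Clec4e, lectin receptors of myeloid cells, and Hdc, the histamine-forming enzyme. Hdc is also a mast cell gene, and of 12 tested mast cell genes it was the only one called (median -0.09). The summed level of all 18 neutrophil markers was 381 to 1600 CPM in dysplasia and 858 to 4000 in carcinoma in situ. Most of that sum was S100a8 and S100a9, which keratinocytes also make and which did not pass (log2 fold changes 1.35 and 1.29, adjusted p = 0.315 and 0.366). Among defining markers, Csf3r lay between 0.536 and 6.86 CPM in dysplasia, with B01 highest, and between 2.14 and 28.8 in carcinoma in situ, with C07 and C10 at 28.8 and 21 (log2 fold change 2.31, adjusted p = 0.0329). Cxcr2 did not pass (1.08, adjusted p = 0.0828) and Retnlg was higher in B01 (7.43 CPM) than in any carcinoma in situ sample. The part of these cells in the chemokine and protease results was not tested.

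Without B01, 10 neutrophil markers were called, and without C07 only 1. Acod1 kept its call with each library left out (log2 fold change 3.45, and 2.82 without C07). Clec4e and Clec4d lost theirs without C07 (adjusted p = 0.0591 and 0.0688), and their log2 fold changes of 3.55 and 3.28 were 2.85 and 2.58 without C07 and 4.52 and 3.99 without B01. Csf3r was not called without any of B02 to B07, C02, C07 or C10 (0.0508 to 0.139).

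Of 20 tested macrophage and monocyte markers, 3 were higher (median 0.39): Cd14, the lipopolysaccharide co-receptor, Spp1, osteopontin, and Msr1, a scavenger receptor. The defining macrophage genes Adgre1 and Csf1r had log2 fold changes of 0.07 and 0.09 (adjusted p = 0.856 and 0.698). Without B03, C07 or C10 none of the list was called, and the log2 fold change of Spp1, 2.57, was 1.62 without C07 and 3.18 without B01. Cd14 also lost its call without C02 (0.0505 to 0.0853 over these 4 libraries), and Msr1 without B02, B04, B05, B06 or C02 as well. Of 21 T cell and cytotoxic lymphocyte genes, 3 were higher (median 0.61): Trdc, the constant region of the delta T cell receptor chain, and the cytotoxic granule genes Gzmb and Prf1. Trdc was at 1.07 to 2.5 CPM in dysplasia and at 1.84 to 25.4 in carcinoma in situ, where C02 was highest and C10 and C11 followed at 7.42 and 5.51. Its log2 fold change was 1.90 (adjusted p = 0.0148), and 0.99 without C02 (0.0701), when none of the list was called. Gzmb (1.84, adjusted p = 0.0205) also lost its call without C07 (0.0839), and Prf1 (1.71, 0.0427) lost its call in 10 of the 13 fits with a library left out, all but those without B04, C01 or C04 (0.0551 to 0.123), and with the length trend described below removed (0.0619). Cd3e, Cd8a and Cd4 had log2 fold changes of 0.83, 0.53 and -0.04 (adjusted p = 0.162, 0.568 and 0.953). Of 12 tested B and plasma cell genes none was called by edgeR (median -0.65, 3 at an unadjusted p under 0.05), while DESeq2 called 1 higher and 1 lower and limma-voom 1 higher.

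Selp, the adhesion molecule by which venous endothelium catches leukocytes, was at 4.02 to 6.51 CPM in dysplasia and at 4.41 to 43.1 in carcinoma in situ. C04 lay inside the dysplasia range and the other 5 samples above it. Selp had a log2 fold change of 1.80 (SE 0.35, adjusted p = 0.00832) and the call held with each library left out. In fits to the 13 samples alone, with either gene filter, and with the replicate number as a block, Selp was not called. Of 20 tested endothelial and lymphatic vessel genes it alone was called, and their median was -0.10.

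Of 18 tested checkpoint ligands and receptors, 4 were higher and none lower (median 0.26). Cd80, the costimulatory ligand, rose from a mean of 2.17 CPM to 4.46 (log2 fold change 1.04, adjusted p = 0.0168), with C04 inside the dysplasia range, and kept its call with each library left out. Cd47, Cd276 and Havcr2 rose by log2 fold changes of 0.26, 0.48 and 0.85 (adjusted p = 0.028, 0.0379 and 0.0484), and all of these calls were lost without B03, B04, B06, C02, C07 or C10. Cd274, Pdcd1 and Ctla4, which encode PD-L1, PD-1 and CTLA-4, did not pass (log2 fold changes -0.19, 0.70 and 0.40, with adjusted p = 0.718, 0.169 and 0.422). B02 had the highest Cd274 level at 30.9 CPM, against 6.16 to 12.5 in the other 12 samples.

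Proteases of the extracellular matrix and their inhibitor Timp1 were higher in carcinoma in situ. Of 24 tested metalloproteinase and inhibitor genes, 7 were higher and none was lower (median 0.32): Mmp10, Mmp13, Mmp3, Mmp12, Timp1, Adam8 and, named after its value was seen, Adamts4 (log2 fold change 1.62). The list gave 6 to 10 higher genes with each library left out, the smallest number without C07 and the largest without C04.

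Mmp10, stromelysin 2, lay between 0.0464 and 0.829 CPM in dysplasia (median 0.089) and between 0.175 and 19.2 in carcinoma in situ (median 4.52). C10, C02, C07 and C01 were at 3.52 or more, and C11 and C04 were below the highest dysplasia sample, B06. The log2 fold change was 4.98 (SE 0.95, adjusted p = 0.00832), 6.11 without B06 and 4.30 without C10. Mmp3, stromelysin 1, went from a median of 4.89 CPM (3.48 to 11.7) to 40.4 (6.08 to 71.5), with the same 4 samples at 35.7 or more and C04 and C11 within the dysplasia range (log2 fold change 2.61, SE 0.53, adjusted p = 0.0104). Mmp13, a collagenase, went from a median of 0.625 CPM (0.371 to 4.11, highest in B01) to 16.8 (0.743 to 26.4), again with C04 and C11 below B01 (log2 fold change 3.67, SE 0.83, adjusted p = 0.0168). Its log2 fold change was 4.47 without B01, and without C07 its adjusted p was 0.0506.

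Mmp12, the macrophage elastase, had a log2 fold change of 1.65 and Timp1, which inhibits metalloproteinases, 2.47 (both adjusted p = 0.00832). Adam8, a membrane protease of leukocytes and epithelium, rose by less, 0.79 (SE 0.13, adjusted p = 0.00496), but in every sample: dysplasia lay between 12 and 16.9 CPM and carcinoma in situ between 22.1 and 37.2, so the groups did not overlap. Mmp3, Mmp10, Mmp12, Timp1 and Adam8 kept their calls with each library left out.

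Mmp13, Mmp3 and Mmp10 lie together on chromosome 9 (GRCm38 chr9:7272514-7283331, chr9:7445822-7455975 and chr9:7502352-7510240, all on the plus strand). Their upstream sequences are shown because all 3 rose in the same 4 samples and each holds the AP-1 letters TGANTCA once. The lines give the 250 bases before each RefSeq start (GRCm38.p6), 5′ to 3′, with the match in capitals.
Mmp13, chr9:7272264-7272513, plus strand: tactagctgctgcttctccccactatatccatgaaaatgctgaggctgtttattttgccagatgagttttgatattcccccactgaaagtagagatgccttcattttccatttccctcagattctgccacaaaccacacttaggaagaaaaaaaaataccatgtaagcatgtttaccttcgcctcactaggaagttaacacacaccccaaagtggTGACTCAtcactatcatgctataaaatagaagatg
Mmp3, chr9:7445572-7445821, plus strand: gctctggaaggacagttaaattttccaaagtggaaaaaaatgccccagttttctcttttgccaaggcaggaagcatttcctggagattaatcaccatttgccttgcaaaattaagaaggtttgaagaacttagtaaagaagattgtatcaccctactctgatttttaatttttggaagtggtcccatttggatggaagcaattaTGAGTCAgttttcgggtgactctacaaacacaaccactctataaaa
Mmp10, chr9:7502092-7502341, plus strand: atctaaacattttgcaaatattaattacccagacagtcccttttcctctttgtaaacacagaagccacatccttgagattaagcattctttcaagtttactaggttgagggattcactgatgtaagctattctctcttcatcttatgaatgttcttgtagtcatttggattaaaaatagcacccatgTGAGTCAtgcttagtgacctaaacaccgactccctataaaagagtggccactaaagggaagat
The match begins at position -35 in Mmp13, -46 in Mmp3 and -63 in Mmp10. TGANTCA on either strand was in 633 of the 12450 windows (5.08%), in 32 of 389 genes called higher (8.23%), in 19 of 94 called at least 2-fold higher (20.2%) and in 13 of 332 called lower (3.92%). By list, it was in 4 of 18 metalloproteinase and inhibitor genes (22.2%) and in 7 of 32 cornified envelope genes (21.9%), a list with no member called higher. These too are counts of letters, with no test, and the part of AP-1 in the protease changes was not tested. The genes for AP-1 subunits were not called: none of 22 tested AP-1 and immediate early genes passed (3 at an unadjusted p under 0.05), with a median of 0.01. DESeq2 called 0 of them and limma-voom 1, as lower. Of the other windows looked at, that of Saa3 holds 1 match to the NF-kB letters and none to the AP-1 letters. The Il1b, Timp1, Inhba and Tchh windows hold neither motif, which says only that these letters are not in those 250 bases.

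Of the plasminogen activator genes, Plau, urokinase, rose by 0.84 (adjusted p = 0.0219), a call lost without C02, C07 or C10 (0.0512 to 0.0688). Plaur, its receptor, did not pass (1.24, adjusted p = 0.0679), with B01 at 6.46 CPM and the other dysplasia samples at 1.47 to 1.95.

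Of 25 tested activin and TGF-beta signalling genes, 4 were higher and none was lower, Inhba, Ltbp2 and Tgfbi among the 4. The list as a whole had a median of 0.06, with 16 positive and 9 negative log2 fold changes. Inhba, the activin A subunit, lay between 2.31 and 4.56 CPM in dysplasia (median 3.47) and between 3.93 and 35.2 in carcinoma in situ (median 18.2), with C01 and C10 highest and C04 alone inside the dysplasia range. Its log2 fold change was 2.42 (SE 0.42, adjusted p = 0.00666). Ltbp2, a matrix protein of the latent TGF-beta binding family, was above the dysplasia range in all 6 samples (2 to 2.88 against 3.10 to 9.17 CPM; log2 fold change 1.3, adjusted p = 0.0135). Inhba and Ltbp2 kept their calls with each library left out. Tgfbi (0.87, adjusted p = 0.037) lost its call without any of B03 to B07, C02, C07 or C10 (0.0597 to 0.13). Tgfb1 itself did not pass (0.31, adjusted p = 0.223).

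Some laminin genes rose, and the keratins of the basal layer did not pass the test. Of 24 tested integrin and laminin genes, 4 were higher and none was lower. The log2 fold change was positive for 15 and negative for 9, with a median of 0.06. Without C02 or C10 none of this list was called. Lama3 and Lamb3 encode chains of the laminin in the epithelial basement membrane, and Lama1 another laminin chain. Lama3 and Lamb3 had log2 fold changes of 1.17 and 0.59 (adjusted p = 0.0285 and 0.0484). Lama3 was not called without B02, B03, B05, B07, C02, C07 or C10 (0.0506 to 0.095), and Lamb3 with any of the 13 libraries but C04 left out (0.0512 to 0.139). Lama1 was at most 0.0874 CPM in dysplasia and reached 1.01 in C10 (3.42, adjusted p = 0.0175), and without C02, C07 or C10 it was too low to be tested.

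Of 15 tested basal keratinocyte genes, 4 were higher, Lama3 and Lamb3 among them, and none was lower. Over all tested genes, 2.99% were called higher. The log2 fold change was positive for 13 of the 15 and negative for 2, with a median of 0.31. Without C02 or C10 none of these 15 was called. Krt5, Krt14 and Trp63, which define basal keratinocytes, did not pass (log2 fold changes 0.31, 0.30 and 0.13, adjusted p = 0.225, 0.429 and 0.602). Of the injury keratins, none of 9 tested was called by edgeR, DESeq2 or limma-voom (0 at an unadjusted p under 0.05 in edgeR), and Krt6a and Krt16 had log2 fold changes of -0.26 and -0.18. Pdpn, podoplanin, is a membrane protein of basal and invading keratinocytes and also a marker of activated stroma, and its source here was not tested. Pdpn had no overlap between the groups: 8.99 to 11.5 CPM in dysplasia and 12.9 to 25.4 in carcinoma in situ (log2 fold change 0.86, SE 0.14, adjusted p = 0.00408). It kept its call with each library left out. Among matrix genes of the stroma, Col12a1 rose by 1.94 (adjusted p = 0.0135, and 0.0627 without C07) and Tnc, tenascin C, by 1.28 (0.0299, lost without B02, B03, B04, B06, B07, C02, C07 or C10, 0.0515 to 0.105). Col1a1 and Col3a1 did not pass (0.35 and 0.24, adjusted p = 0.331 and 0.473), nor did Vim (-0.05, adjusted p = 0.82).

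The inhibitors at the Cdkn2a locus rose, and they were the only higher genes among 19 tested G1 cyclins, kinases and inhibitors (median 0.07). Cdkn2a, which encodes p16Ink4a and p19Arf in overlapping frames, lay on chromosome 4 (GRCm38 chr4:89274471-89294653, minus strand). It was at 1.57 to 3.88 CPM in dysplasia (median 3.08) and at 3.23 to 18.5 in carcinoma in situ (median 11.2). C02, C11, C07 and C10 were at 9.90 or more, and C01 and C04 were inside the dysplasia range. Cdkn2a had a log2 fold change of 1.82 (SE 0.31, adjusted p = 0.00496). The counts are per gene and do not separate the 2 transcripts. From normal to invasive, the stage means were 0.168, 3.14, 2.90, 10.3 and 6.79 CPM.

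Cdkn2b, the neighbouring gene for p15Ink4b (chr4:89306299-89311039), rose less but without overlap, from 8.47 to 11.4 CPM in dysplasia to 12.3 to 16.6 in carcinoma in situ (log2 fold change 0.57, SE 0.10, adjusted p = 0.00707). Mtap, nearby on the chromosome (chr4:89137122-89181081, plus strand) and a gene of methionine salvage, was looked at after its values were seen, with a log2 fold change of 0.79 (adjusted p = 0.0127). Cdkn2a, Cdkn2b and Mtap kept their calls with each library left out. Ccnd2, a G1 cyclin, was lower (-0.36, adjusted p = 0.0256), a call lost without B02, B03, B04, B06, C07, C10 or C11 (0.0515 to 0.0707) and with the gene length trend removed (0.0669). Ccnd1 did not pass (-0.22, adjusted p = 0.245).

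Of 20 tested driver genes of oral squamous carcinoma, Cdkn2a was the only one higher and Arid2 the only one lower. Over all tested genes, 2.99% were called higher and 2.47% lower, the shares against which the counts in this paragraph are to be read. With 1 gene each way, the driver list was near them. Arid2, a subunit of a chromatin remodeller, fell from 52.4 to 61.0 CPM in dysplasia to 41.1 to 47.6 in carcinoma in situ with no overlap (log2 fold change -0.32, adjusted p = 0.0168, and 0.0553 without C10). Trp53 and Notch1 did not pass (0.09 and -0.14, adjusted p = 0.512 and 0.508). Among proliferation genes, 2 of 30 mitosis genes (Birc5 and Ndc80, log2 fold changes 0.52 and 0.60) and 2 of 30 replication genes (Tk1 and Rfc5, 0.52 and 0.40) were higher and none was lower. All 4 calls were lost without B02, B03, B04, C02, C07, C10 or C11, and without C04, the carcinoma in situ sample with the lowest level of each, 11 and 9 genes of these lists were called. The log2 fold change was positive for 27 of the 30 mitosis genes (median 0.24) and for 29 of the 30 replication genes (median 0.22). In edgeR, 11 and 12 of these had an unadjusted p under 0.05, against 23.3% of all tested genes. Mki67 had a log2 fold change of -0.07 (adjusted p = 0.817).

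Genes of hypoxia and glucose uptake rose in part. Of 29 tested glycolysis and hypoxia genes, 3 were higher and none lower (median 0.20). Slc2a1, the glucose transporter, was at 80.4 to 121 CPM in dysplasia and at 144 to 465 in carcinoma in situ, highest in C02, with no overlap (log2 fold change 1.23, adjusted p = 0.0161, and 0.0588 without C02). Hif1a, the oxygen-sensing transcription factor, went from 150 to 213 CPM in dysplasia to 169 to 439 (0.86, adjusted p = 0.0251), with C04 inside the dysplasia range, and was not called without B02, C02, C07 or C10 (0.0501 to 0.0839). Car12, a carbonic anhydrase, rose by 0.64 (adjusted p = 0.0111) and kept its call with each library left out. None of 34 nuclear oxidative phosphorylation genes was called by edgeR, DESeq2 or limma-voom, and 0 had an unadjusted p under 0.05 in edgeR (median -0.02). Of 29 NRF2 targets, 3 were higher and none lower (Gclm, Gsr and Ugdh, which serve glutathione and glucuronide metabolism), and C02 was the highest sample for all 3. Of the 29, 25 had a positive log2 fold change and 19 an unadjusted p under 0.05 in edgeR, against 23.3% of all tested genes. The median was 0.46, and 0.14 to 0.57 with 1 library left out. None of the list was called without B02, B04, B07, C02, C07 or C10.

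Genes of terminal squamous differentiation were lower in carcinoma in situ. Of 35 tested cornified envelope genes, 7 were lower and none higher, 32 of 35 had a negative log2 fold change, and the median was -0.66. Of 8 tested suprabasal keratins, 5 were lower and none higher (median -0.78). The cornified envelope list gave 2 to 19 lower genes with 1 library left out, fewest without B03, C02, C07 or C10 and most without C01, and the suprabasal keratin list 0 to 5, none without B03, B06, C02 or C07.

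Tchh, trichohyalin, which toughens filiform papillae and hair sheaths (chr3:93442330-93449077), lay between 1020 and 2930 CPM in dysplasia (median 2350) and between 261 and 1350 in carcinoma in situ (median 656). C07 and C02 were lowest and C01 alone reached into the dysplasia range, above B01. Tchh had a log2 fold change of -1.59 (SE 0.34, adjusted p = 0.0117), and the call held with each library left out. Flg, filaggrin (chr3:93273523-93293686), fell with the carcinoma in situ samples in the same order, from a median of 141 CPM (83.3 to 207) to 39.9 (18.3 to 103; log2 fold change -1.60, SE 0.40, adjusted p = 0.0248). Rptn, repetin, and Crnn, cornulin, both of the same fused S100 family, had log2 fold changes of -0.99 and -1.29 (adjusted p = 0.0157 and 0.0445). Flg lost its call without B03, C02, C07 or C10 (0.0505 to 0.0691), Rptn without C07 (0.0527), and Crnn without any of B02 to B07, C02, C07, C10 or C11 (0.0527 to 0.126). The other called members were Hrnr (-0.85), Ppl (-0.54) and Lce1i (-1.07), and the reads of Lce1i may be shared with close copies. Ppl (adjusted p = 0.0259) lost its call without B02, B03, B06, C02, C07, C10 or C11 (0.0505 to 0.0767). Lce1i (0.0458) lost its call without B02, B03, B05, B06, B07, C02, C07, C10 or C11 (0.0526 to 0.126). For Hrnr no fit with a library left out is given here. Outside the list, Kprp, a proline-rich keratinocyte protein, had a log2 fold change of -1.28 (adjusted p = 0.0214, and 0.0554 to 0.0656 without C02, C07 or C10). Lor and Ivl, loricrin and involucrin, did not pass (-0.66 and -0.60, adjusted p = 0.0851 and 0.109).

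Krt76, a keratin of the oral suprabasal layers, went from a median of 1540 CPM (937 to 2460) to 548 (172 to 1200), lowest in C07 and C02, with C01 and C04 above the 2 lowest dysplasia samples (log2 fold change -1.28, SE 0.36, adjusted p = 0.0361). Krt24, Krt10 and Krt80 had log2 fold changes of -0.84, -0.77 and -0.62 (adjusted p = 0.0253, 0.0348 and 0.025), and the fifth gene, Krt78, named after its value was seen, -0.78. Krt4 and Krt13, the main keratin pair of oral mucosa, did not pass (-0.38 and -0.32, adjusted p = 0.261 and 0.2). Krt76 lost its call without B02, B03, B05, B06, B07, C02, C07, C10 or C11 (0.0514 to 0.096). Krt24 and Krt80 lost theirs without B03, B06, C02, C07 or C10 (0.0529 to 0.0808), Krt10 without B02, B03, B04, B06, B07, C02, C07 or C11 (0.0532 to 0.116) and Krt78 without B02 to B07, C02, C07, C10 or C11 (0.0582 to 0.136). Of 21 tested skin lipid barrier genes, 3 were lower and 1 higher (median -0.16). The lipoxygenase genes Aloxe3 and Alox12b and the lipase gene Pnpla1, which build the lipid layer of the cornified envelope, were lower by 0.58, 0.42 and 0.43 on the log2 scale (adjusted p = 0.0234, 0.0447 and 0.0317), and all 3 calls were lost without B03, B06, C02, C07 or C10. Lipn, another lipase gene, had the largest change of the list and went the other way (log2 fold change 1.53, adjusted p = 0.0171, and 0.0727 without C02).

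**Figure D3:**
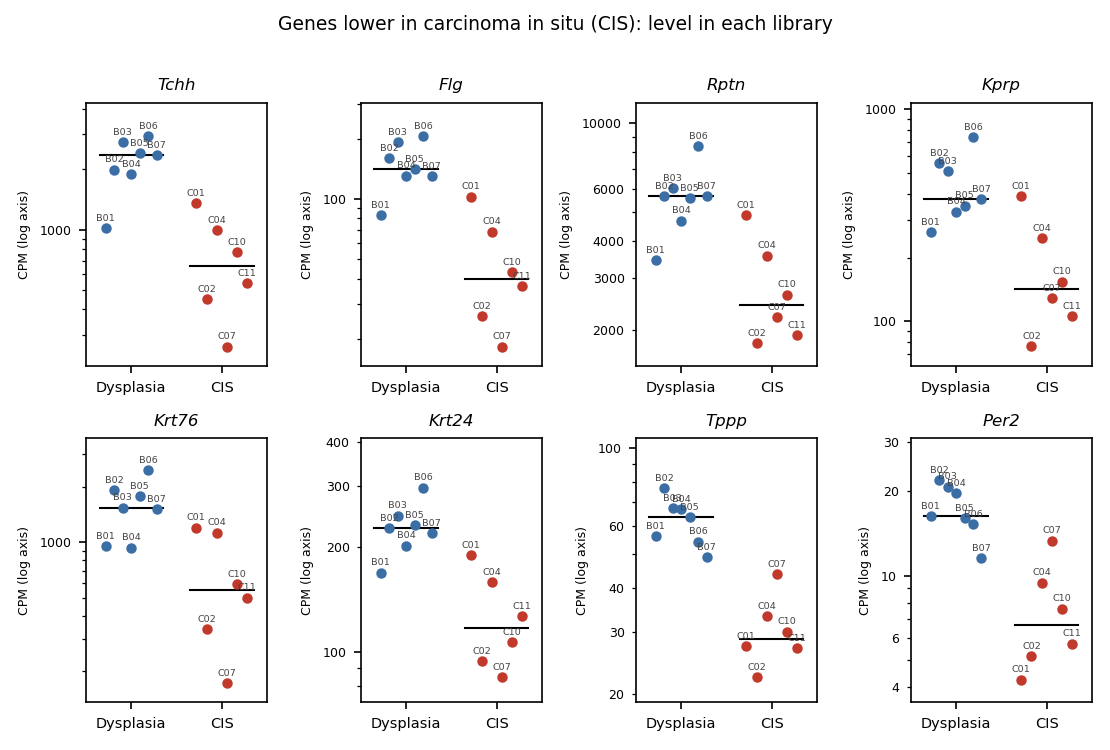
Each point is 1 library, with dysplasia in blue and carcinoma in situ (CIS) in red, on a log axis in CPM, and the black line is the group median. Tppp separates the groups with no overlap, while for the differentiation genes shown C01 reaches, and for Per2 C07 reaches, into the dysplasia range.

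B01, the sample with the most salivary gland RNA, had the lowest dysplasia level of Tchh, Flg, Rptn, Krt13, Krt10 and Tgm3. Without B01, C04 and C07, the samples with the highest mean log level of salivary gland genes, 7 cornified envelope genes and 4 suprabasal keratins were called lower (medians -0.74 and -0.82), and 6 chemokine and 8 metalloproteinase genes were called higher. In all, 925 genes were called then, 681 of them among the 964.

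Several of the smallest p-values in the comparison belonged to genes outside these lists. Tppp, a microtubule-bundling protein (chr13:74009407-74035753), was at 48.9 to 76.8 CPM in dysplasia (median 63.6) and at 22.4 to 43.8 in carcinoma in situ (median 28.7). The groups did not overlap, and the log2 fold change was -1.02 (SE 0.11, adjusted p = 1.56e-05). Hivep2, a zinc finger transcription factor, fell from 51.0 to 60.7 CPM to 32.3 to 44.2 (-0.48, adjusted p = 0.00243), and Itpkb, an inositol phosphate kinase, from 59.1 to 69.8 to 37.9 to 58.6 (-0.49, adjusted p = 0.00408), each with no overlap. Rfx2, a transcription factor of ciliated cells, and Baz2b, a bromodomain protein, followed with log2 fold changes of -0.89 and -0.32 (both adjusted p = 0.00496). All 5 kept their calls with each library left out.

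Of 18 circadian clock genes, 4 were lower and none higher (median -0.29). Per2, a repressor of the clock, was at 11.5 to 21.8 CPM in dysplasia (median 16.3) and at 4.26 to 13.3 in carcinoma in situ (median 6.67), with C07 alone above the lowest dysplasia sample (log2 fold change -1.19, SE 0.23, adjusted p = 0.00832). Rora, Tef and Cry2 had log2 fold changes of -0.42, -0.44 and -0.37 (adjusted p = 0.0267, 0.0321 and 0.0407), and Dbp and Arntl did not pass (-0.38 and 0.11, adjusted p = 0.482 and 0.52). Per2 kept its call with each library left out. Rora, Tef and Cry2 were all lost without B02, B03, B06, C07, C10 or C11, and with the gene length trend removed (adjusted p = 0.0691, 0.0629 and 0.0671). The labels give no time of day for any sample.

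For several of these genes dysplasia was itself high among the 5 stages. From normal to invasive, the stage means of Per2 were 8.15, 7.91, 17.3 ± 3.59 (SD, n = 7, dysplasia), 7.58 ± 3.36 (SD, n = 6, carcinoma in situ) and 9.40 CPM. Rfx2 had means of 12.2, 11.1, 23.1, 12.5 and 18.2 CPM in the same order of stages. Tppp was at 60.5, 33.0, 62.0, 30.6 and 43.5 CPM, so hyperplasia was near carcinoma in situ and normal tissue near dysplasia. Tchh was at 1084, 1486, 2190, 728 and 725 CPM, whereas Krt76 was highest in normal tissue at 2400 CPM and stood at 1505, 1587, 655 and 604 in the later stages.

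The cytokine and protease genes had another order. Cxcl1 had means of 0.117, 0.611 and 0.714 CPM in normal tissue, hyperplasia and dysplasia, then 7.4 ± 7.0 (SD, n = 6) at the in situ stage and 11.5 ± 8.92 (SD, n = 6) at the invasive one. Mmp3 stood at 4.50, 4.80 and 5.91 CPM before carcinoma in situ, then at 36.1 ± 25.0 (SD, n = 6) and 36.4 ± 35.6 (SD, n = 6). The means of the 2 carcinoma stages differed by less than 1 SD for both genes. The spread within carcinoma in situ was as large as its mean for Saa3 (65.6 ± 72.6 CPM, SD, n = 6), against 2.04 ± 1.77 (SD, n = 7) in dysplasia.

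Some large changes came from 1 sample. Prl2c5, a placental prolactin family gene with close copies between which reads may be split, had the highest log2 fold change of the called genes whose higher group mean reached 5 CPM, 6.54, from 29.4 CPM in C02 against at most 0.933 in any other of the 13 samples. Without C02 it was 2.80 (adjusted p = 0.0699), and without B06 7.19. Nefl, a neurofilament gene, had 32.9 CPM in C02 and a log2 fold change of 4.03, and -0.52 without C02 (adjusted p = 0.808). Its call was also lost without B01, B03 to B07, C07 or C10, and without B02 its value was 4.93. Pthlh, the parathyroid hormone related protein, was highest in C02 at 84.8 CPM (2.39, and 1.63 without C02, adjusted p = 0.131), and lost its call also without B02 to B05, B07, C07 or C10 (0.0543 to 0.0749). Grem1, a BMP antagonist of the stroma, was highest in C07 at 34 CPM (2.48, and 1.5 without C07, adjusted p = 0.126), with a call lost also without C10 (0.0529).

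**Figure D4:**
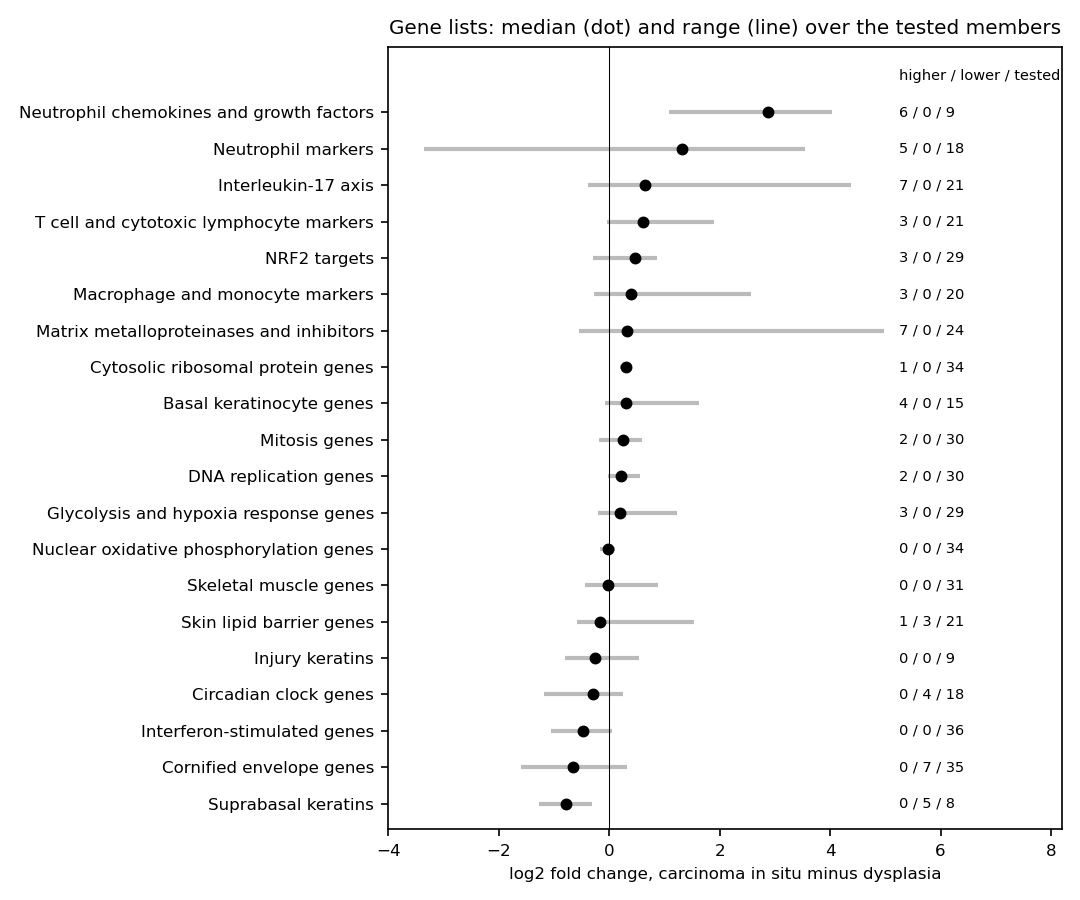
For each gene list the dot is the median and the line the range of the log2 fold change (carcinoma in situ minus dysplasia) over tested members, and the numbers at right are members called higher, called lower and tested. Neutrophil chemokines have the highest median, 2.87, and suprabasal keratins the lowest of the lists drawn, -0.78, against -0.002 over all tested genes.

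Several gene groups showed no calls in edgeR. None of 36 interferon-stimulated genes was called, and 7 had an unadjusted p under 0.05, a smaller share than the 23.3% of all tested genes. Of the 36, 34 had negative log2 fold changes, and the median was -0.47. B02 held the highest dysplasia levels of Isg15 and Mx1. None of 20 MHC class I and peptide loading genes (median 0.06, 3 at an unadjusted p under 0.05), 31 muscle genes (median -0.03, 3 at that level) or 11 Sprr2 genes (median 0.22, 1 at that level) was called. DESeq2 called 1 interferon-stimulated gene lower and 1 muscle gene higher, limma-voom called 3 muscle genes higher, and neither called another gene of these 4 lists.

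Cytosolic ribosomal protein genes had small positive log2 fold changes. All 34 had positive log2 fold changes between 0.19 and 0.40 (median 0.31) and an unadjusted p under 0.05, against 23.3% of all tested genes. Of the 34, 1, Rpl19, was called (0.38, adjusted p = 0.0351), a share near the 2.99% of all tested genes called higher. Without C04, 30 were called, and without B01, B02 to B06, C02, C07, C10 or C11, none.

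Gene length moved with the direction of change. The median exonic length was 2783 bases for genes called higher and 6967 for genes called lower, against 3852 for all tested genes and 1730 for the ribosomal protein genes. In 5 bins of equal size from the shortest to the longest genes, 151, 145, 115, 74 and 43 genes were higher and 15, 34, 58, 111 and 218 lower. Across genes, which are not independent replicates, the log2 fold change had a Spearman correlation of -0.21 with length. In single libraries, the correlation of length with the deviation from each gene's mean was 0.08 to 0.21 in all 7 dysplasia samples and -0.22 to 0.09 in carcinoma in situ, lowest in C10 and C07. With the trend removed, 554 genes were called (318 higher and 236 lower), 514 of them among the 964. Among others, Baz2b (adjusted p = 0.0653), Rpl19 (0.0665), Tgfbi (0.0566), Lamb3 (0.0566), Gsr (0.0617) and Tk1 (0.0597) were then no longer called, while the calls of Cxcl1, Saa3, Mmp3, Mmp10, Mmp13, Inhba, Cdkn2a, Tchh, Flg, Krt76, Tppp and Per2 held. The part of gene length in the smaller changes of long genes was not tested further.

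**Figure D5:**
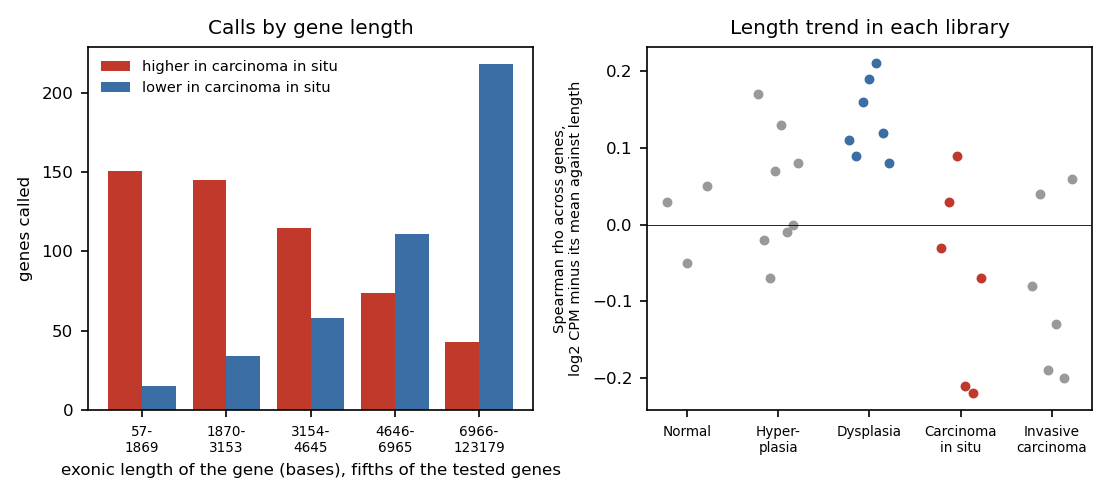
At left, bars count the genes called higher (red) and lower (blue) in each of 5 equal bins of the tested genes by exonic length in bases. At right, each point is 1 library's Spearman correlation, across genes, of gene length with the log2 CPM minus the gene's mean, and all 7 dysplasia points lie above 0.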

How the data were processed

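Oral tissue RNA of 30 mouse samples at 5 stages was sequenced from stranded mRNA libraries, per the labels' protocols. The deposited values are raw read counts per Ensembl gene, and the submitters' processing notes name cutadapt 2.4, STAR 2.7.2a and GRCm38. How reads were assigned to genes (tool, use of strand, annotation) is not given in the sources used here. Of 55487 identifiers, 99.53% matched GENCODE M21, from which symbols, types and coordinates were taken, and 17638 passed edgeR's expression filter by stage.

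edgeR 4.0.16 (R 4.3.3) with TMM factors and a robust quasi-likelihood fit of 1 mean per stage to all 30 samples gave the contrast of carcinoma in situ minus dysplasia. Benjamini-Hochberg adjustment covered all tested genes, and a gene was called at an adjusted p under 0.05. The standard error (SE) is the log2 fold change divided by the square root of F. Code letters and numbers were taken from the sample titles. The script was tested on simulated counts.

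Named genes were the 15 largest changes each way among called genes with a group mean of at least 5 CPM, the 10 smallest p-values each way, up to 4 members with the smallest p and the defining markers of each of 60 gene lists, and the checkpoint, driver and G1 genes. Of these, the text gives those it needs to describe a list or result. The members and lists were chosen with earlier results of these data known. Same-numbered samples of the 2 groups were checked for pairing: correlations of their deviations were -0.37 to 0.15 and 0 of 4 matched best with their own number, so no pairing was used. No 2 samples agreed within sampling noise (lowest chi-square per degree of freedom 14.8). Alternatives were other scaling, filter, tools (DESeq2 1.42.0, limma 3.58.1), covariates, fewer samples, each library left out and, chosen after seeing the data, removal of a gene length trend and of the 3 most salivary libraries. Promoters came from the RefSeq table on GRCm38.p6, which held 12450 of the tested genes. Some genes of the lists are not reported here.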

Additional observations from a re-analysis of the deposited data

Results flagged for a closer look

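Among 163 genes examined in 2 groups each (326 groups), 35 had 1 sample far from the others of its stage: its gap to the nearest sample, divided by the group's range on the log2 scale, passed the critical value for the group's size. Chance would give about 16.3 such cases if the groups were independent and the log levels normal. The genes share the same libraries and some were named for large changes, so 16.3 is a rough mark only. Of the 35, 17 were in B01, 9 as the highest and 8 as the lowest sample of dysplasia. Each value below is that ratio, followed by the sample's level. B01 was the highest dysplasia sample for Retnlg (0.805, 7.43 CPM), Clec4e (0.710, 1.05 CPM), Cd14 (0.739, 9.43 CPM), Spp1 (0.733, 10.8 CPM), Mmp13 (0.604, 4.11 CPM), Mmp12 (0.592, 2.93 CPM), Plaur (0.827, 6.46 CPM), Col1a1 (0.823, 151 CPM) and Muc5b (0.642, 25000 CPM). B01 was the lowest dysplasia sample for Krt5 (0.707, 1900 CPM), Trp63 (0.781, 188 CPM), Tchh (0.583, 1020 CPM), Ppl (0.615, 520 CPM), Krt13 (0.688, 19300 CPM), Tgm3 (0.735, 2180 CPM), Alox12b (0.642, 321 CPM) and Dsg1a (0.616, 465 CPM). B06 was the lowest dysplasia sample for Trdc (0.583, 1.07 CPM), Havcr2 (0.575, 0.948 CPM) and Adam8 (0.666, 12 CPM). C02 was the highest carcinoma in situ sample for Gsr (0.662, 102 CPM), Nefl (0.790, 32.9 CPM) and Prl2c5 (0.756, 29.4 CPM). C07 was the highest carcinoma in situ sample for Il1rl1 (0.723, 34.6 CPM) and Pip (0.743, 6.65 CPM). B06 was the highest dysplasia sample for Ptgs2 (0.674, 20.1 CPM) and Mmp10 (0.756, 0.829 CPM). B02 was the highest dysplasia sample for Cd68 (0.691, 15.3 CPM) and Cd274 (0.701, 30.9 CPM). C04 was the lowest carcinoma in situ sample for Trp63 (0.732, 210 CPM) and Ndc80 (0.651, 4.55 CPM). B02 was the lowest dysplasia sample for Plau (0.683, 33.5 CPM). C01 was the highest carcinoma in situ sample for Alox12b (0.648, 477 CPM). C02 was the lowest carcinoma in situ sample for Arntl (0.866, 31.4 CPM). B05 was the highest dysplasia sample for Pip (0.630, 0.45 CPM).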

How the results depend on the processing

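The 964 calls (528 higher and 436 lower) stayed within 1.5 times under RLE scaling (929), upper-quartile scaling (1076), a salivary gland covariate (1109) and without the 3 most salivary libraries (925, chosen after seeing the data). Given as all, higher and lower, the calls were 327, 173 and 154 with no expression filter, 1521, 798 and 723 with DESeq2, and 2270, 1211 and 1059 with limma-voom and sample weights. Fits to the 13 samples alone called 173, 100 and 73 genes filtered on all 30 samples, and 200, 111 and 89 filtered on these. A skeletal muscle covariate gave 2208, 1116 and 1092, both covariates 2688, 1395 and 1293, and removal of the length trend, chosen after seeing the data, 554, 318 and 236. An adjusted p under 0.01 left 62, 30 and 32. edgeR's test against a fold of 1.5 called 0, 0 and 0 (389 at an unadjusted p under 0.05). With the replicate number as a block the counts were 282, 148 and 134, with 203 of the calls shared. The labels do not say whether the numbers link samples, and the check on 4 shared numbers could not exclude such a link. With 1 library left out the calls ran from 164 to 2201, the higher ones from 75 to 1362 and the lower ones from 89 to 839. No shared call changed direction in any of these fits. Among single genes, Nefl was -0.52 without C02, and 4.93 without B02. The cause of these shifts was not tested. Depth limits genes under about 1 CPM, such as Il6, Lama1 and Csf3, whose values rest on few reads.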

Other observations

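A few genes of Wnt signalling were called, 1 higher and 3 lower. Of 36 tested members, Axin2, a feedback inhibitor and common readout of the pathway, the ligand Wnt7b and the receptor Fzd7 were lower in carcinoma in situ (log2 fold changes -0.45, -0.51 and -0.38, edgeR adjusted p = 0.0394, 0.0487 and 0.0348), and Sfrp1, a secreted Wnt antagonist, was higher (0.48, adjusted p = 0.015). The median of the list was -0.06. Its share called higher was near that of all tested genes, of which 2.99% were called higher and 2.47% lower. With the gene length trend removed, 1 gene of the list was called lower. None of the lower ones was called without B02, B03, B06, C02, C07, C10 or C11, and Sfrp1 was not called without C07.

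Of 21 tested prostaglandin and leukotriene genes, Ptges, the prostaglandin E synthase, and Slco2a1, a prostaglandin transporter, were higher beside Ptgs2 (0.59 and 0.91, adjusted p = 0.0407 and 0.0251), and Ptger3, a prostaglandin E receptor, was lower (-0.71, adjusted p = 0.0252). All 3 of these calls were lost without C02, C07 or C10. Of 20 epithelial-mesenchymal transition genes, Snai3, a Snail family repressor, was lower (-0.94, adjusted p = 0.0135) and Pdpn and Tnc were higher, while the median was 0.07. Of 18 tested heat shock and chaperone genes, 1 was lower and 1 higher (median -0.04). Hspa1a, an inducible chaperone, was lower (-0.84, adjusted p = 0.0214, lost without C07 or C10). Hspe1 was higher (0.36, adjusted p = 0.0143, lost without C02 or C07).

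Pak3, Dgki, Maml3 and Adgrg2 were lower by 0.8, 0.68, 0.47 and 0.84 on the log2 scale (adjusted p = 0.00832 for each) and kept their calls with each library left out. Lancl1 was higher on the same terms (0.42, adjusted p = 0.00666).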
